A study of Mus musculus with 3 samples.

Results

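The Hox genes are 39 protein-coding genes of the mouse that encode homeodomain transcription factors, and they lie in 4 clusters. They were found by symbol among 21887 protein-coding genes of the RefSeq annotation of GRCm38, the assembly also called mm10. HoxA on chromosome 6 holds 11 of them, HoxB on chromosome 11 holds 10, HoxC on chromosome 15 holds 9 and HoxD on chromosome 2 holds 9. Each cluster was read from its first to its last gene with 50 kb on each side, which gave 4 windows of 206, 274, 216 and 197 kb.

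FOXF1, a forkhead transcription factor of the lung mesenchyme and its vessels, was the protein precipitated, and the DNA bound with it was sequenced (ChIP-seq). The material was whole lung of wild-type C57BL/6 embryos at embryonic day 18.5, with 3 lungs pooled for each of the 2 replicates. No allele was altered and no treatment was given, and the 1 comparison in the peak calls is that of each replicate with a 2% input of the same tissue and stage. Whole lung mixes endothelium, mesenchyme, epithelium and blood, so a summit cannot be traced to a cell type, and occupancy in few cells cannot be told apart from weak occupancy in many.

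The authors' lists hold the summit of each peak with a score, the −log10 significance at the summit against the input. Replicate 1 had 107378 summits on the nuclear chromosomes and replicate 2 had 61172, a ratio of 1.76. The number of reads behind each list is unknown here. A shared site was a summit of each replicate that were mutual nearest neighbours at most 100 bp apart, and there were 51013 of them. The Hox windows held 146 summits of replicate 1, 75 of replicate 2 and 45 shared sites. With 1 condition there are no groups to contrast, so the values below are descriptions without a test.

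Hox genes pattern the body from head to tail. Within a cluster they are numbered by paralogue group, from group 1, expressed farthest forward, to group 13, expressed at the tail end. The lung and its mesenchyme are known to use mainly the front and middle groups of HoxA and HoxB, and Hoxa5 is required for normal airway and lung formation. Hox proteins bind DNA together with TALE partners of the Pbx and Meis families, and Polycomb proteins keep unused parts of the clusters silent.

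The promoter sequences show the letters in which summits fell, or next to which they fell. RefSeq promoter windows of GRCm38, from 250 bases before to 50 after an annotated start, were at hand for 22 of the 39 Hox genes, in 24 windows. Hoxb2, Hoxb3, Hoxb5, Hoxb6 and Hoxb7, the genes near the highest sites, are not among the 22. The start is that of a transcript, and in 5 windows, of Hoxa10, Hoxb8, Hoxc4, Hoxd10 and Hoxd11, it lies over 1 kb inside the annotated gene. Shown first are the 5 windows that held a summit of either replicate, followed by Hoxa2, whose window held both motifs searched. All are written 5′ to 3′ on the strand of the gene, and capitals mark a motif match.
Hoxa3: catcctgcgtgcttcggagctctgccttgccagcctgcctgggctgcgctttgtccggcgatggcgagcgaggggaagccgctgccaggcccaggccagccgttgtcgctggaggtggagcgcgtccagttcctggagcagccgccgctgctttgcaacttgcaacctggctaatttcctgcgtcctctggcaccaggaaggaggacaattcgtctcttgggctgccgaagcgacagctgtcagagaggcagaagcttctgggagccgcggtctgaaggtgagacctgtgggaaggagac
Hoxa6: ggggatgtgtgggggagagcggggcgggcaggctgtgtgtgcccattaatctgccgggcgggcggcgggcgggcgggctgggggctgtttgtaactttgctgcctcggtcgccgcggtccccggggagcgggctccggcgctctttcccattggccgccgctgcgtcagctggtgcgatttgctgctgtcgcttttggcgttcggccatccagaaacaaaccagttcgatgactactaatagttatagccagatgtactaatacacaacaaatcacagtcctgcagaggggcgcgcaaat
Hoxb8: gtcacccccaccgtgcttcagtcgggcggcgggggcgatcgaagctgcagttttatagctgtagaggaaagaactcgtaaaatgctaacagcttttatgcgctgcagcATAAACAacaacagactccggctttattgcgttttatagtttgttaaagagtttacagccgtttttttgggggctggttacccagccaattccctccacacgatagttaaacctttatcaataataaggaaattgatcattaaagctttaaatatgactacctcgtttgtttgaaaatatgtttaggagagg
Hoxb4: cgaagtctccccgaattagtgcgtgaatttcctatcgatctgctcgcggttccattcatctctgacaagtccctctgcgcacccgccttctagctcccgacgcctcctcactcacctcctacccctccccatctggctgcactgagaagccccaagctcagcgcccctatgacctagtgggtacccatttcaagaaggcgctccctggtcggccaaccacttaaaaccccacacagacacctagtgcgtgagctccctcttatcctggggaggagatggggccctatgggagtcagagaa
Hoxd3: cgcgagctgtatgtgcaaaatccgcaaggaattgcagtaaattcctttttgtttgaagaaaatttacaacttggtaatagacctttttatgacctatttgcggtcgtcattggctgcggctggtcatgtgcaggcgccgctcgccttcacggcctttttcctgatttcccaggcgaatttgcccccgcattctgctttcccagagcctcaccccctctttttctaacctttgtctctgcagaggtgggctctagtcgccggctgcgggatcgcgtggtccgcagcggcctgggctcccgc
Hoxa2: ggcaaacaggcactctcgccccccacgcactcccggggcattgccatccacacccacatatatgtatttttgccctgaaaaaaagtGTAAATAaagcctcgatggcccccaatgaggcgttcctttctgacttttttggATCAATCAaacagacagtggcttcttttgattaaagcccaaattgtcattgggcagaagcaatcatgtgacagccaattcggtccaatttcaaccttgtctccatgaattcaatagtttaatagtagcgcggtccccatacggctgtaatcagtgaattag

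The Hoxa3 window (chr6:52213018-52213317, minus strand) held a replicate 2 summit at base 9 from its 5′ end, with a score of 22.0. The replicate 1 summit lay 84 bp outside that window, and both belong to a shared site upstream of the gene. The Hoxa6 window (chr6:52208623-52208922, minus strand) held a replicate 2 summit at base 100, with a score of 12.1. The nearest replicate 1 summit lay 365 bp outside the window.

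In HoxB and HoxD the promoter summits came from replicate 1 instead. The Hoxb8 window (chr11:96281655-96281954, plus strand) held one at base 165 with a score of 12.4, and its start lies 2504 bp inside the annotated gene. The Hoxb4 window (chr11:96318017-96318316, plus strand) held one at base 23 with a score of 5.07, and the Hoxd3 window (chr2:74711743-74712042, plus strand) one at base 146 with a score of 5.07. The Hoxa2 window (chr6:52164782-52165081, minus strand) held no summit, but a replicate 2 summit lay 20 bp from it. None of the 24 Hox windows held a shared site, whereas 20.5% of the 21263 protein-coding promoter windows of the same length did. The 24 are not an even sample of the clusters. HoxB is present through Hoxb8, Hoxb4 and Hoxb1 alone, without the genes near its highest sites, and HoxC through Hoxc4 alone. A replicate 1 summit was in 3 of the 24 (12.5%, against 28.7% of all windows) and a replicate 2 summit in 2 (8.33%, against 24.4%).

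The forkhead motif was searched as TGTTTAC or TGTTTAT or TATTTAC or TATTTAT, on both strands. It was in 7 of the 24 Hox windows (29.2%) and in 12.8% of all promoter windows. Both windows of Hoxa10 are among the 7, and of the 7 only that of Hoxb8 held a summit. Of the windows shown, Hoxb8 had the forkhead motif from base 109 and Hoxa2 from base 87. A motif bound by Hox and Pbx proteins, TGATTNAT on both strands, was in 2 of the 24 (8.33%), against 2.75% of all windows. One of these was that of Hoxa2, from base 140, where it did not overlap the forkhead match. A match in these letters is a description and not a measured site.

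FOXF1 summits were abundant in HoxA and HoxB, almost absent from HoxC, and in HoxD abundant in replicate 1 alone. The HoxA window (chromosome 6, 52105367 to 52310880) held 57 summits of replicate 1, 42 of replicate 2 and 20 shared sites. The HoxB window (chromosome 11, 96144316 to 96418254) held 54, 27 and 20. The HoxC window (chromosome 15, 102871131 to 103086856) held 2, 1 and 1, and the HoxD window (chromosome 2, 74618225 to 74815142) held 33, 5 and 4. Exact Poisson intervals at 95%, which cover counting error only, were 12.2 to 30.9 for the 20 shared sites of HoxA and of HoxB. They were 1.09 to 10.2 for HoxD and 0.0253 to 5.57 for HoxC.

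**Figure D1:**
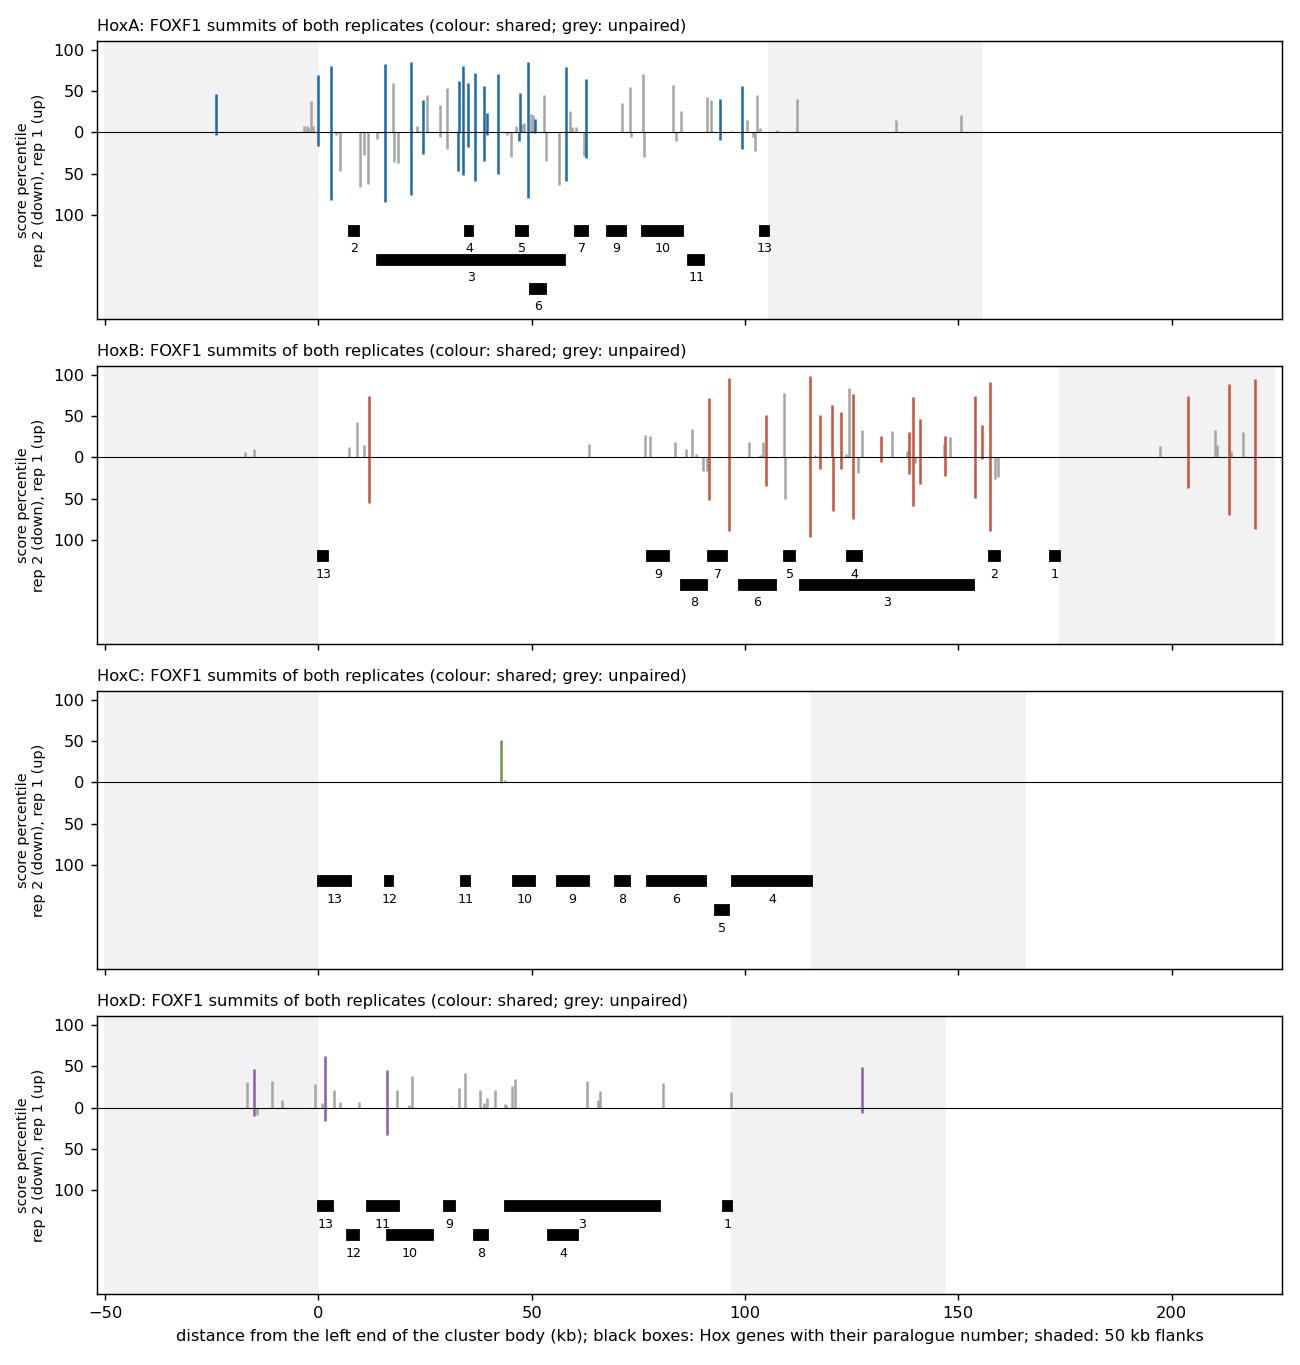
Summits in the 4 Hox windows by distance from the left end of the cluster (kb), with the Hox genes described as black boxes over their paralogue numbers and the 50 kb flanks shaded. Bar height is the percentile of the summit's score within the whole list of replicate 1 (upward) or replicate 2 (downward); coloured bars belong to shared sites and grey bars are unpaired. HoxA and HoxB each hold 20 shared sites, HoxC 1 and HoxD 4.

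For scale, the chromosomes were cut into 200 kb tiles, of which 3298 held at least 5 ends of protein-coding genes. These gene-rich tiles had a median of 5 summits of replicate 1, 3 of replicate 2 and 2.5 shared sites per 100 kb. HoxA had 27.7 summits of replicate 1 and 20.4 of replicate 2 per 100 kb, above every gene-rich tile in both lists. Its 9.73 shared sites per 100 kb were above 98.6% of them. HoxB had 19.7, 9.86 and 7.30 per 100 kb, above 99.3%, 95.8% and 94.3% of the tiles. Over all 13165 tiles, gene-rich or not, HoxA was above 99.98% in replicate 1 and 99.97% in replicate 2. The windows were drawn around the clusters, whereas tile borders were fixed, and a border falls inside HoxA. These ranks therefore do not compare regions placed in the same way.

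The other clusters lay lower. HoxC had 0.927 summits of replicate 1, 0.464 of replicate 2 and 0.464 shared sites per 100 kb, and 19.3% of gene-rich tiles held at most 1 shared site. Its longest stretch without a summit of either replicate was 122 kb, from position 102964845 to the end of the window, and took in 6 of its 9 Hox genes. HoxD had 16.8 summits of replicate 1 per 100 kb, above 97.9% of the tiles, but 2.54 of replicate 2, above 46.1%. Its ratio of replicate 1 to replicate 2 summits was 6.60, against 2.00 in HoxB, 1.36 in HoxA and 1.76 for the lists as a whole.

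**Figure D2:**
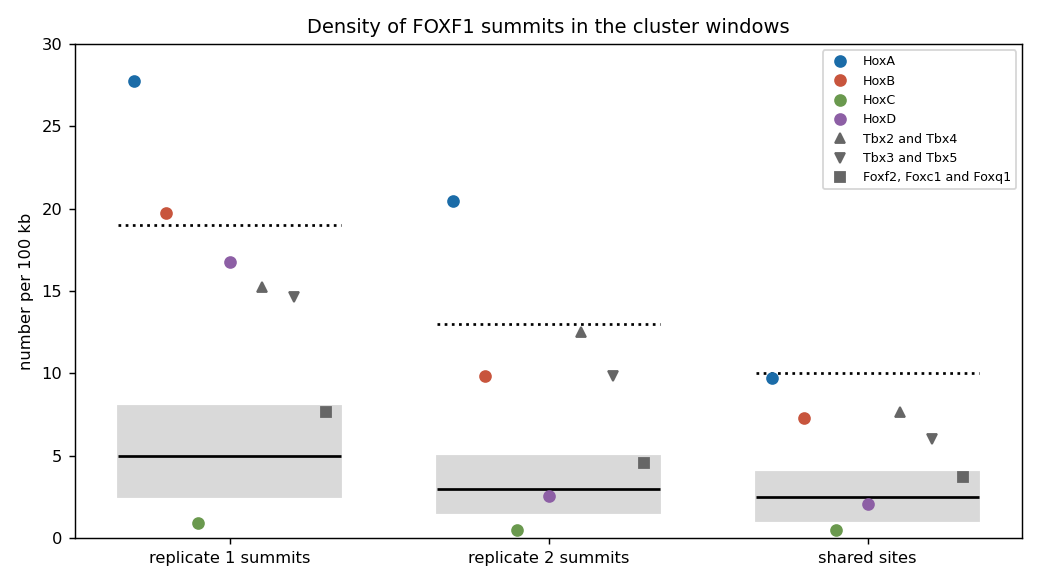
Number per 100 kb of replicate 1 summits, replicate 2 summits and shared sites in the 4 Hox windows (coloured circles) and 3 other regions (grey symbols). The grey box spans the middle 50% of 3298 gene-rich 200 kb tiles, the solid line is their median and the dotted line their 99th percentile; HoxA lies above that line in both replicates and HoxC below the box in all 3 lists.

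Clusters of other transcription factor genes, drawn with the same flanks, gave values in the range of HoxA and HoxB or below. The region of Tbx2 and Tbx4, T-box genes of the lung mesenchyme, had 28 summits of replicate 1, 23 of replicate 2 and 14 shared sites, or 7.63 shared sites per 100 kb. That of Tbx3 and Tbx5 had 46, 31 and 19 (6.04 per 100 kb). The forkhead cluster of Foxf2, Foxc1 and Foxq1 had 27, 16 and 13 (3.69 per 100 kb). The differences between these regions and the Hox windows were not tested.

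By gene, 20 of the 39 Hox genes had at least 1 shared site at most 5 kb from an annotated end (51.3%, exact interval 34.8 to 67.6%), near the 54.4% of all protein-coding genes. By cluster, the count was 9 of 11 in HoxA (81.8%, exact interval 48.2 to 97.7%) and 7 of 10 in HoxB (70%, 34.8 to 93.3%). It was 1 of 9 in HoxC (11.1%, 0.281 to 48.2%) and 3 of 9 in HoxD (33.3%, 7.49 to 70.1%). Of these intervals, that of HoxC alone leaves out the 54.4%. Neighbouring Hox genes share sites, so these genes are not independent. Within 1 kb the count was 11 of 39 (28.2%), against 41.5% of all protein-coding genes, with 6 in HoxA, 4 in HoxB, 1 in HoxD and 0 in HoxC.

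The lists differed most for HoxD. With replicate 1 alone, 30 of 39 Hox genes had a summit within 5 kb of an end (76.9%), against 67.4% of all protein-coding genes, and these included all 11 of HoxA and all 9 of HoxD. With replicate 2 alone, 22 of 39 did (56.4%), against 60.8%, again with all 11 of HoxA but 3 of HoxD. No summit of either replicate lay near 9 Hox genes, namely Hoxb1 and 8 of the 9 HoxC genes. With the 10000 highest summits of each list, 5 Hox genes had a shared site (12.8%), against 7.01% of all protein-coding genes. The exact interval, 4.30 to 27.4%, takes in the 7.01%. The 5 genes were Hoxb2, Hoxb3, Hoxb5, Hoxb6 and Hoxb7. Of these, Hoxb3 and Hoxb5 were counted for the same site, as were Hoxb6 and Hoxb7.

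By paralogue group, a shared site within 5 kb lay at 5 of 8 genes of groups 1 to 3, 9 of 15 of groups 4 to 8 and 6 of 16 of groups 9 to 13 (62.5%, 60% and 37.5%, against 54.4% of all protein-coding genes). Each exact interval (24.5 to 91.5%, 32.3 to 83.7% and 15.2 to 64.6%) takes in the 54.4%. Group and cluster are mixed here. HoxC, almost without summits, gave 0 of 4 genes in groups 4 to 8 and 1 of 5 in groups 9 to 13, and has no gene in groups 1 to 3. In HoxD the order differed, with 0 of 2, 0 of 2 and 3 of 5 genes. Within 1 kb the counts were 4 of 8, 6 of 15 and 1 of 16 (50%, 40% and 6.25%, against 41.5%). The single gene of groups 9 to 13 with a site within 1 kb was Hoxd10, measured from the left end of its annotated span. The start in its promoter window lies 7618 bp inside that end.

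**Figure D3:**
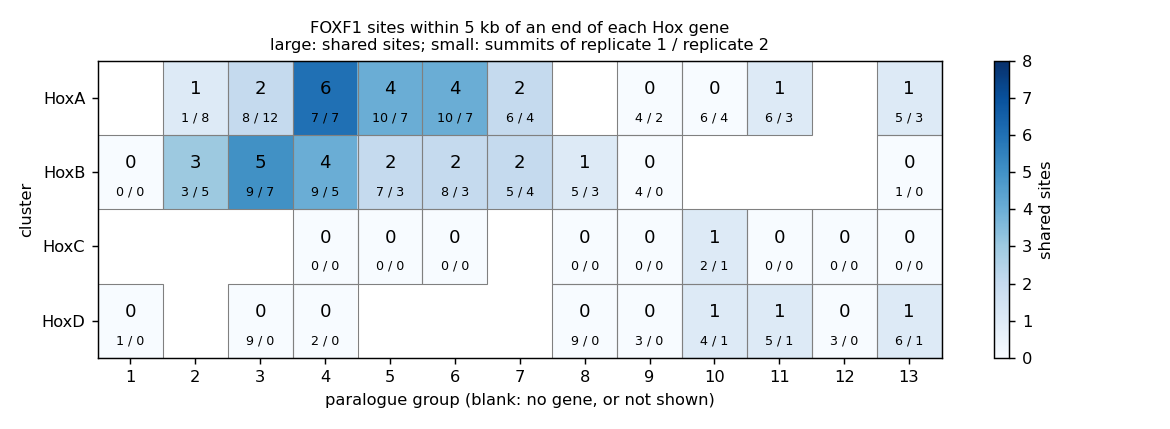
Each cell is 1 Hox gene, by cluster (rows) and paralogue group (columns), and blank cells have no gene or are not shown. The large number and the colour give the shared sites within 5 kb of either end, and the small numbers the summits of replicate 1 and replicate 2; Hoxa4 has 6 shared sites, Hoxb3 has 5, and 8 of the 9 HoxC genes have no summit.

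In HoxA, shared sites crowded from Hoxa2 to Hoxa7. This stretch of 56.2 kb held 15 of the 18 shared sites in the cluster body, at 26.7 per 100 kb, and 30 summits of replicate 1 and 29 of replicate 2. The stretch from Hoxa9 to Hoxa13, of 37.8 kb, held 2 shared sites, 15 summits of replicate 1 and 8 of replicate 2. The borders of these stretches, and of those named for HoxB and HoxD, were chosen after the positions were seen.

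The highest HoxA site lay at position 52204390, inside Hoxa5 and 197 bp from its right end, which is its start on the minus strand. It scored 67.2 in replicate 1 and 39.1 in replicate 2, percentiles 71.0 and 77.5 among all shared sites. Hoxa5 (chromosome 6, 52201754 to 52204587) had 3 further shared sites within 5 kb. One of these lay 712 bp inside the gene, with scores of 18.4 and 6.67. The top site also lay 468 bp from Hoxa6, a middle-group gene of the trunk, which had 4 sites in its 5 kb windows.

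Next in HoxA came a site at 52170881, inside the annotated span of Hoxa3, a gene of pharyngeal arch organs, with scores of 58.7 and 45.5. A site at 52177123 scored 65.8 and 34.7 and lay 32 bp from the noncoding gene 5730596B20Rik, again within the 44 kb annotated span of Hoxa3. Hoxa3 and its 5 kb surroundings held 14 shared sites, 30 summits of replicate 1 and 28 of replicate 2, but 2 of those sites lay within 5 kb of its ends. The annotated span of Hoxa3 takes in Hoxa4, Hoxa5 and Hoxa6, and most of these sites are nearest to one of those. The other one near an end, at 52213355, 288 bp outside the start whose promoter is shown above, scored 51.6 and 22.0.

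Hoxa4, a middle-group gene, had 6 shared sites within 5 kb, more than any other Hox gene. They lay at 52188195, 52189220, 52190434, 52192023, 52194115 and 52194922. The replicate 1 scores were 29.6, 54.8, 26.5, 39.4, 23.9 and 9.54, and the replicate 2 scores 16.2, 18.4, 8.06, 22.1, 12.2 and 4.60. The highest by mean rank was 462 bp outside the gene's left end. All but that site ranked below the median of shared sites in replicate 1, and all but the site at 52192023 did so in replicate 2.

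Hoxa2, a gene of the second pharyngeal arch, had 1 shared site within 5 kb, at 4053 bp. Among the HoxA genes described here it differed most between lists, with 1 replicate 1 summit and 8 replicate 2 summits within 5 kb. The highest unpaired one, at 52165101, scored 26.9 in replicate 2, and the nearest replicate 1 summit was 5817 bp away. Hoxa7 had 2 sites, one of which lay 499 bp inside its right end with scores of 31.3 and 10.8.

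The shared sites near the posterior HoxA genes had low scores. Hoxa11 had 1 site at 3589 bp, with scores of 15.0 and 6.14, and Hoxa13, a gene of digits and hindgut, had 1 at 4167 bp, with 23.9 and 8.68. Hoxa9 had none, although the nearest lay just beyond the limit at 5023 bp, and for Hoxa10 the nearest was at 8545 bp. Both had summits in each list, 4 and 2 for Hoxa9 and 6 and 4 for Hoxa10, that were not paired within 100 bp. At a pairing distance of 200 bp both gained the same shared site, between the 2 genes. Its summits lay 191 bp apart, at 52228498 in replicate 1 and 52228689 in replicate 2.

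HoxB held the strongest sites of the 4 clusters. The highest, at 96309517, lay inside Hoxb3, 2416 bp from its left end and 3396 bp from Hoxb5, a mesenchymal gene of the branching lung. It scored 187.6 in replicate 1 and 80.3 in replicate 2, percentiles 97.9 and 95.9, and was the single Hox site in the top 10% of shared sites in both replicates. The next, at 96290614, lay 451 bp outside Hoxb7 and 423 bp from the antisense gene Hoxb5os, with scores of 121.1 and 51.4. A site at 96351859, 227 bp inside Hoxb2, a hindbrain gene, had 90.6 and 51.9.

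The stretch from Hoxb8 to Hoxb2, of 74.6 kb, held 16 of the 17 shared sites of the HoxB body, at 21.4 per 100 kb. The 82.3 kb from Hoxb13 to Hoxb9 held 1, at 96206066, which lay 9456 bp from Hoxb13 with scores of 43.1 and 19.8. Hoxb4, which acts in blood stem cells and the hindbrain, had 4 sites within 5 kb, the highest 1357 bp inside the gene at 96319624 with scores of 47.1 and 33.2. An unpaired replicate 1 summit at 96318716, 449 bp from the left end of Hoxb4, scored higher than that, at 64.1.

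Hoxb6 had 2 sites, the site near Hoxb7 at 2200 bp and one at 96299235 with scores of 20.7 and 12.1. Hoxb8 had 1, at 658 bp, which scored 40.8 and 18.8 and also lay 379 bp inside Hoxb7. Hoxb5 had 2 sites within 5 kb. Closer to it, 45 bp from its left end, lay a replicate 1 summit scoring 49.9, whose nearest replicate 2 summit, scoring 17.6, was 129 bp away and so just missed the pairing limit. Hoxb9 had 4 replicate 1 summits and Hoxb13 had 1, with none of replicate 2.

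Hoxb1, the gene at the front end of HoxB, had no summit of either replicate within 5 kb. Farther out, in the flank toward Skap1, 3 shared sites rose in score with distance from Hoxb1. At 29822 bp the scores were 43.1 and 12.7, at 39514 bp they were 78.0 and 29.0, and at 45598 bp they were 115.1 and 48.4. The last of these had rank 3 among the 45 sites of the 4 windows.

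HoxC had 1 shared site, at 102963990, 2806 bp outside Hoxc10. It scored 20.7 in replicate 1 and 3.64 in replicate 2, percentiles 12.7 and 0.383. The 1 further summit of the window was from replicate 1, with a score of 4.57. The nearest shared site was 54107 bp from Hoxc4, a middle-group gene, and 50018 bp from Hoxc5. The files hold peak calls and no signal, so the data give no measure of coverage in the empty stretches.

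HoxD had 4 shared sites, all below the median score rank in both replicates. One lay inside Hoxd13, a gene of digits and genitalia, at 74669828, with scores of 29.6 and 7.78. Another, at 74684376, lay in the overlap of the annotated spans of Hoxd10 and Hoxd11, with 17.0 and 11.99. This was 103 bp inside the left end of Hoxd10, the 5′ end of its span on the plus strand. The third was 149 bp inside Evx2, the homeobox gene beside Hoxd13, with 18.3 and 6.58, and the last lay 30570 bp from Hoxd1 and 30100 bp from Mtx2, with 19.1 and 5.60. From Hoxd8 to Hoxd1, a stretch of 60.5 kb, replicate 1 had 14 summits and replicate 2 had 0. The unpaired replicate 1 summits of HoxD scored from 2.58 to 15.3 with a median of 8.74. The medians of unpaired replicate 1 summits were 8.94 in HoxA, 7.44 in HoxB and 10.2 over the whole list.

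Most shared Hox sites scored below the median of all shared sites. The median score percentile of the 45 sites among all shared sites was 28.2 in replicate 1 and 30.4 in replicate 2. At or above the overall median stood 12 sites in replicate 1 and 15 in replicate 2, and 15 sites were in the lowest 20% in both. By cluster, the median percentiles were 29.6 and 29.1 in HoxA, 46.4 and 47.2 in HoxB and 10.1 and 10.2 in HoxD. Low ranks were not particular to the Hox windows. The medians were 38.1 and 33.2 at Tbx3 and Tbx5 and 32.5 and 39.1 at Foxf2, Foxc1 and Foxq1. At Tbx2 and Tbx4 they were higher, at 65.1 and 63.1. The order of scores was alike in both replicates, with a Spearman's rho of 0.875 across the 45 sites and 0.883 across all shared sites. The sites of a replicate share its library and the input, so this is a description.

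**Figure D4:**
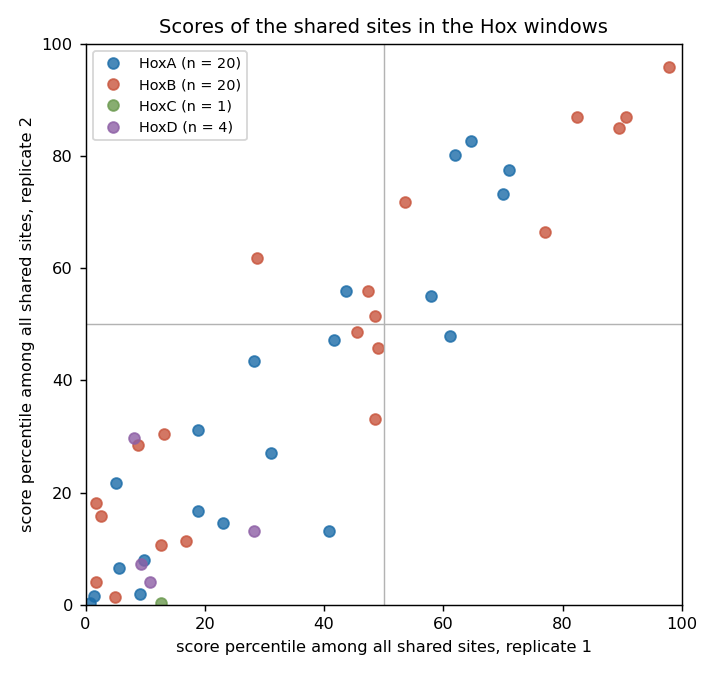
Score percentile among all 51013 shared sites in replicate 1 (x axis) and replicate 2 (y axis) for the 45 shared sites of the Hox windows, coloured by cluster, with grey lines at the median. HoxD and HoxC points lie in the lower left, and 1 HoxB site lies above 90 on both axes.

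Many HoxA summits of one replicate had no close partner in the other. Of the 42 replicate 2 summits in the HoxA window, 20 had a replicate 1 summit within 100 bp (47.6%, exact interval 32.0 to 63.6%), against 83.4% of all 61172 replicate 2 summits. In HoxB it was 20 of 27 (74.1%, 53.7 to 88.9%). The shares in the other regions were 60.9% of 23 at Tbx2 and Tbx4, 61.3% of 31 at Tbx3 and Tbx5 and 81.3% of 16 at Foxf2, Foxc1 and Foxq1, and the T-box values lie inside the HoxA interval. Within 1000 bp the shares were 73.8% (31 of 42) in HoxA and 92.6% (25 of 27) in HoxB, against 97.5% overall. In HoxA 11 replicate 2 summits and in HoxB 2 had no replicate 1 summit within 1000 bp.

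The share of paired summits rose with the score in the whole list, and HoxA summits had a median replicate 2 score of 10.3, against 17.6. With all replicate 2 scores split into 5 equal ranges of rank, in the lowest range 7 of 17 HoxA summits were in a shared site (41.2%), against 68.5% of all summits in it. In the next range it was 4 of 12 (33.3%) against 83.4%, in the middle one 5 of 6 (83.3%) against 86.3%, in the next 2 of 5 against 87.2%, and in the top one 2 of 2. The interval of each HoxA share covers counting error over summits, which are neighbours in 1 region and not independent. Whether summit density, peak width or library depth accounts for the displaced summits was not tested.

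**Figure D5:**
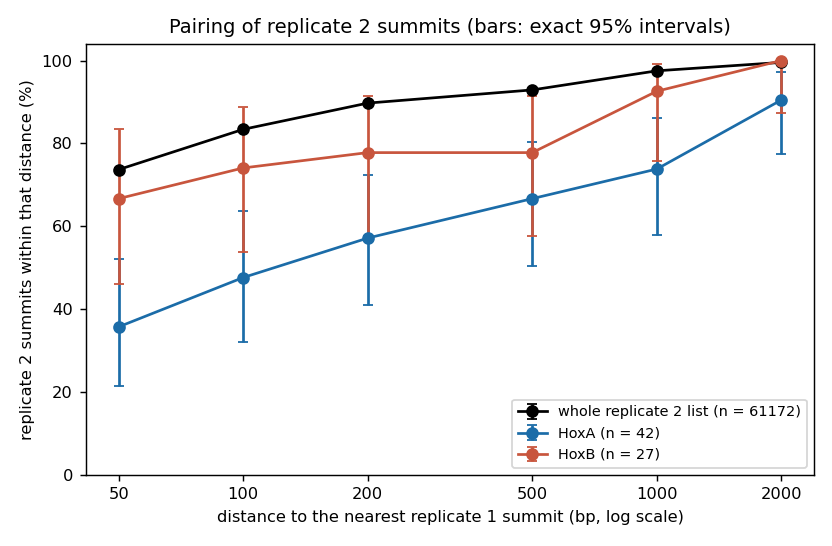
Share of replicate 2 summits (y axis, %) that have a replicate 1 summit within the distance on the x axis (bp, log scale), for the whole list, HoxA and HoxB, with exact 95% intervals. At 100 bp the values are 83.4%, 47.6% and 74.1%.

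Noncoding genes are spread through the clusters, and several share regulatory DNA with Hox genes. Of 29 long noncoding RNA genes in the windows, 7 had a shared site no farther than 1 kb from an end (20.9% of all 12727 long noncoding RNA genes did), namely Hotairm1, Hotairm2, 5730596B20Rik, Hoxaas3 and Hoxa11os in HoxA and Gm11538 and Hoxb5os in HoxB. None of the 9 in HoxC and HoxD did, which include the Polycomb-linked RNA gene Hotair. Hotairm1 and Hotairm2 were counted for the same site, at 52158364. The share of 7 in 29 is near the 20.9%.

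Of 6 microRNA genes, Mir10a in HoxB was the 1 with a shared site within 1 kb, against 11.7% of all 1228 microRNA genes. The site, at 96316842, lay 323 bp from it, with scores of 23.0 and 7.64. Its paralogue Mir10b in HoxD was 41694 bp from the nearest. The mature sequences of both, and of the Mir196 genes of HoxA, HoxB and HoxC, are given from RefSeq to show which microRNAs share a seed (bases 2 to 8, in capitals).
miR-10a-5p: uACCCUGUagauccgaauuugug
miR-10b-5p: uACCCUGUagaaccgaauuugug
miR-196a-5p: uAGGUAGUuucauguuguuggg
miR-196b-5p: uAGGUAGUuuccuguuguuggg

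The miR-10 pair has 1 seed and the miR-196 pair another. Genes of the same seed lie in different clusters, so each has its own nearest shared site. For Mir196b in HoxA the nearest was at 12007 bp, for Mir196a-1 in HoxB at 20718 bp and for Mir196a-2 in HoxC at 9360 bp.

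Genes that work with or control the Hox genes were read in the same way. A shared site lay within 5 kb of 7 of the 9 TALE cofactor genes (77.8%, exact interval 39.99 to 97.2%), against 54.4% of all protein-coding genes. Within 1 kb it was 6 of 9 (66.7%, 29.9 to 92.5%), against 41.5%. Meis1 led, with a site 112 bp from an end scoring 200.6 and 100.7, followed by Pbx2 at 144 bp with 153.6 and 101.1, while Meis3 and Pbx4 had none. Of 20 regulators of Hox transcription 17 had one within 5 kb (85%, 62.1 to 96.8%), against the same 54.4%. They included Kmt2a, the MLL methyltransferase that keeps Hox genes active, at 78 bp with 75.1 and 37.2. The highest site of the Polycomb gene Bmi1 was at 4531 bp with 68.3 and 55.3, and its nearest was at 170 bp. Cdx1, Rnf2 and Kdm6a had none within 5 kb. Within 1 kb, 11 of the 20 regulators had a site (55%, 31.5 to 76.9%), an interval that takes in the 41.5% of all protein-coding genes. With the 10000 highest summits of each list, 0 of the 20 had a shared site within 5 kb, against 7.01% of all protein-coding genes.

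Of 10 genes that border the clusters 7 had a site within 5 kb (70%, exact interval 34.8 to 93.3%), an interval that takes in the 54.4% of all protein-coding genes. Skap2, next to HoxA, had one 88 bp from an end with scores of 46.9 and 32.3. Beside HoxD, Mtx2 had one at 50 bp with 35.7 and 24.5 and Lnpk one at 409 bp with 29.2 and 23.6, both above every HoxD site in replicate 2. Beside HoxC, Calcoco1 had one at 119 bp with 29.6 and 22.9, whereas Smug1 had none. Ttll6 beside HoxB and Hibadh beside HoxA had none either.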

How the data were processed

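The samples were 2 FOXF1 ChIP-seq replicates and a 2% input. Per the labels' protocols, lungs were fixed in 1% formaldehyde, chromatin was fragmented by MNase and sonication, and 7 µg of antibody was used on 10 µg of it. The authors deposited summits called with MACS2 on mm10, per the submitters' processing notes, 1 list per replicate against the input. The deposited score is a −log10 significance, with no statement of p or q; its minimum was 2.04 in replicate 1 and 2.02 in replicate 2. The sources used here do not give aligner, MACS2 version, duplicate treatment or depth. Scores depend on depth and were ranked within a replicate only.

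Mitochondrial summits (10 and 6) were left out. Sites lie midway between paired summits, and positions are 1-based. RefSeq GRCm38 supplied genes, promoters and microRNAs; it gives gene ends but no exon structure, so no site was assigned to an exon, intron or UTR. Tiles are consecutive and include the Hox regions. Shares have exact (Clopper-Pearson) 95% intervals for counting error. Analysis used Python 3.11.15, pandas 2.3.3 and scipy 1.17.1, checked on simulated positions.

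The members and lists were chosen with earlier results of these data known. Named were Hox genes with a shared site within 5 kb, the highest sites of each window, the genes farthest from a site, noncoding genes with a site within 1 kb, and examples from the other lists. Others named (unpaired summits, promoters with a summit, and further genes without a site) were chosen after their values were seen. One gene is counted in the totals but its own values are not reported here. Alternatives were the pairing distance, score filters, single replicates, flanks and distance to a gene.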

Additional observations from a re-analysis of the deposited data

How the results depend on the processing

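Pairing within 50 bp left 18 of 39 Hox genes with a shared site (50.1% of protein-coding genes) and 2 HoxD sites; within 200 bp there were 22 genes (58.8%) and 24, 21, 1 and 4 sites in HoxA to HoxD. Wider pairing of 500 and 1000 bp, chosen after seeing the data, gave 27 and 28 sites in HoxA and 21 and 22 in HoxB. A score of at least 10 in both replicates left 11 sites in HoxA, 14 in HoxB, 0 in HoxC (0 per 100 kb) and 1 in HoxD; the highest HoxA and HoxD sites then had mean percentiles of 67.0 and 5.85 (74.3 and 20.7 with every summit), and the median over the windows was 37.2 instead of 27.0. Keeping the top 10000 summits per list, 4 sites were left in HoxB and 0 in HoxA, HoxC and HoxD, 5 Hox genes and 7.01% of protein-coding genes had one, the median percentile was 25.4 and that of the highest HoxB site 79.1 instead of 96.9. No highest site could be given where none was left. Without flanks, HoxA had 17.1 and HoxC 0.864 sites per 100 kb and HoxD 2 sites. With 100 kb flanks the HoxD maximum rose to 48.9, at the Mtx2 site, and the median to 38.4. Within 1 kb of an end 11 Hox genes and 41.5% of protein-coding genes had a site; within 20 kb 29 and 69.1%; anywhere in the gene or within 5 kb 20 and 60.6%.

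Leaving out 1 replicate, so that the other's summits stood alone, gave 42 to 57 summits in HoxA, 27 to 54 in HoxB, 1 to 2 in HoxC and 5 to 33 in HoxD. Per 100 kb these were 20.4 to 27.7, 9.86 to 19.7, 0.464 to 0.927 and 2.54 to 16.8. The highest summit had a list percentile of 84.3 to 85.5 in HoxA, 96.5 to 98.99 in HoxB, 0.675 to 50.9 in HoxC and 33.5 to 62.6 in HoxD. Of protein-coding genes 60.8 to 67.4% had a summit, and of Hox genes 22 to 30. The order of HoxA over HoxB over HoxD over HoxC in density held with either list alone and with shared sites. It also held with pairing at 50 and 200 bp, with each flank, and at a score of at least 10. HoxA and HoxB each held 20 shared sites, in windows of 206 and 274 kb. At a score of at least 10 they were close, at 5.35 and 5.11 per 100 kb, with 11 and 14 sites. Among the top 10000 summits HoxB alone had sites. The cause of these shifts was not tested. Depth is unknown, so absence of a summit is no measure of absent binding.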
